A study of Mus musculus with 4 samples.

Results

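Wnt2, Wnt3a, Wnt6, Wnt7a and Wnt8b are 5 of the 19 mouse genes for Wnt ligands, and were chosen because peaks of H3K27me3 had been listed in them. H3K27me3 is the trimethylation of lysine 27 of histone H3. It was profiled by chromatin immunoprecipitation and sequencing in GL261, a mouse glioblastoma cell line, in 1 irradiated library and 1 control library. IR in the label was read as irradiated; the labels give neither a dose nor a time of harvest, and name no other agent or allele for either condition. Each condition also had 1 input library, not analysed here by itself. The members were all deposited peaks that met a listed gene, taken as its RefSeq span on mm10 with 2000 bp on either side. That gave 15 irradiated peaks and 6 control peaks, of 16091 and 9866 in the whole lists, in 5 of 21887 protein-coding genes. Since the genes were picked by these peaks, the peak counts, folds, q, reads and backgrounds below describe them and test nothing.

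Wnt proteins are secreted, lipid-modified signals. They bind Frizzled receptors together with co-receptors such as Lrp5, Lrp6, Ror1 or Ror2. In the canonical branch this keeps β-catenin from being degraded, so that it can act with Tcf and Lef factors in the nucleus; other branches steer cell polarity and movement. The pathway patterns the embryonic brain, and the genes of many of its ligands are silent and bound by Polycomb complexes, which write H3K27me3, in cells that do not use them. In stem cells and many tissues that mark lies mainly over CpG-rich starts of genes, often in broad domains.

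The start regions of these genes are the sequence where Polycomb would usually be looked for, so 3 of them are printed, the 2 extremes in CG content and that of Wnt6, whose peaks all lay before its start. They are the 250 bases just before the transcription start on the gene's own strand, from RefSeq (GRCm38.p6, the assembly of mm10), with each CG dinucleotide in capitals. Wnt3a is chr11:59290752-59291001 (minus strand), Wnt6 is chr1:74771642-74771891 (plus strand) and Wnt8b is chr19:44493222-44493471 (plus strand).
Wnt3a: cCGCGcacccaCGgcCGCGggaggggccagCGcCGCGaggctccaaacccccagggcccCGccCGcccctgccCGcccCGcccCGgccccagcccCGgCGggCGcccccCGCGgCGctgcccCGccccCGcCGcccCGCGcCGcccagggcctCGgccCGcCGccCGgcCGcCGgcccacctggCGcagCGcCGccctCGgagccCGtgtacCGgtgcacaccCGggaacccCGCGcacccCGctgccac
Wnt6: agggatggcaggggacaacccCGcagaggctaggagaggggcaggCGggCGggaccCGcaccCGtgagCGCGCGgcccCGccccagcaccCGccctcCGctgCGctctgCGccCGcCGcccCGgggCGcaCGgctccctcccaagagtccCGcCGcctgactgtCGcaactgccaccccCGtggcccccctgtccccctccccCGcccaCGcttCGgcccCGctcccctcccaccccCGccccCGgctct
Wnt8b: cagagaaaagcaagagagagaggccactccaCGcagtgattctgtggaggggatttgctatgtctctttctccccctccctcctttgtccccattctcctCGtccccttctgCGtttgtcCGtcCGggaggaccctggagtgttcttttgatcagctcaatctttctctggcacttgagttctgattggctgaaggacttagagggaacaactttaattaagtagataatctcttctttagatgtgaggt
CG, which reads the same on both strands, occurred 41 times in the Wnt3a stretch, 34 times in that of Wnt7a, 28 times in that of Wnt6, 20 times in that of Wnt2 and 5 times in that of Wnt8b. Over the 32851 start regions of the table the median count was 6 (quartiles 2 and 16), and 92.1% held at least 1 CG. As many as Wnt3a has were found in 1.09% of them, as many as Wnt8b has in 55.6%. No peak of either list met the start region of any of the 5 genes, taken from 250 bases before the start to 50 bases after it. That was the usual case: 159 start regions (0.484%) met an irradiated peak and 93 (0.283%) a control peak. The genome sequence under the peaks was not used here, so their own letters are not shown.

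Most peaks lay far from these starts, which are those of the RefSeq start table. The RefSeq span of Wnt6 begins 17.6 kb before its start, at chr1:74754342. Its control peak at chr1:74755331-74755684 lay close to that outer edge, which is not counted as a start here. Of the 21, 1 had an edge within 2000 bp of the start, the irradiated peak of Wnt8b that began 732 bp after it. The closest peak edge was 5.60 kb away in Wnt2, 6.02 kb in Wnt6, 7.95 kb in Wnt7a (a control peak) and 9.84 kb in Wnt3a. The farthest summit lay 36.1 kb into Wnt3a. Whether a peak fell in an exon or an intron was not resolved, since the gene table gives spans alone. No other annotated gene overlapped any of the 21 peaks.

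**Figure D1:**
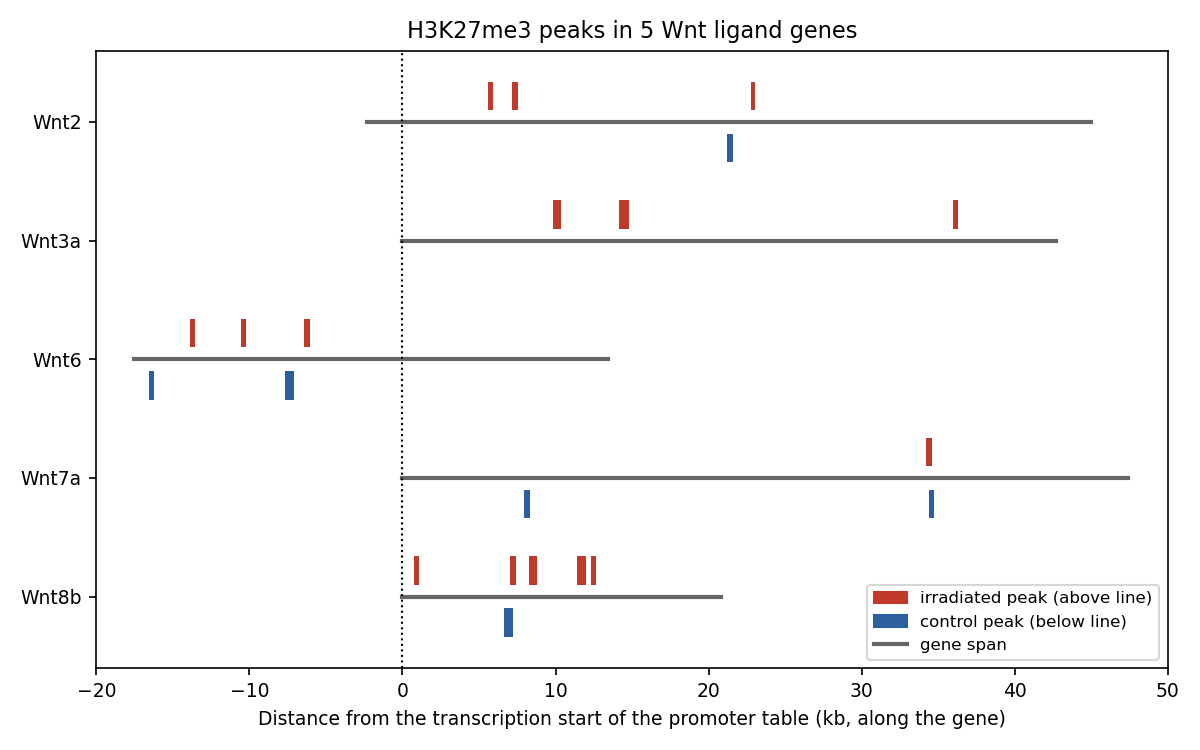
Peaks of the irradiated list (red, above each line) and of the control list (blue, below) in 5 Wnt ligand genes. The horizontal axis is the distance in kb from the transcription start, positive into the gene, and grey lines are gene spans; the peaks of Wnt6 lie left of 0, those of the other genes right of it, and 1 peak of each list overlaps one of the other in Wnt7a (by 208 bp) and in Wnt8b (by 184 bp).

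The peaks were as narrow as the rest of each list. Both deposited lists are of narrow peaks, so these widths cannot show whether broad domains were present. Their width ran between 271 and 638 bp in the irradiated list (median 369, against 364 for all its peaks) and between 284 and 610 bp in the control list (median 359, against 357). Fold is the authors' enrichment at the summit over a local background, and reads are the ChIP reads at the summit, worked out from fold and p. The irradiated peaks had folds of 2.36 to 4.81 (median 3.51, against 3.67 in the list) on 9 to 17 reads. The control peaks had folds of 2.53 to 4.18 (median 3.66, against 3.43 in the list) on 10 to 13 reads. For scale, 95% exact Poisson limits of 13 reads are 6.92 and 22.2, and those of 9 reads 4.12 and 17.1. Within each list the limits of all peaks in the 5 genes overlapped, which does not show that they were alike in strength. Listed peaks had to pass a minimum number of reads, and the limits take no account of that. The number of reads in each library is unknown. Its average per position was taken as the lowest background of any listed peak, 1.27 reads in the irradiated and 1.48 in the control library. At the lowest background the weakest listed peak had 8 irradiated or 7 control reads. With 1 library per condition there was no replicate error, and no p-value between conditions was computed.

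One peak passed a q of 0.05, the false discovery rate of the authors' caller over the genome. It was 1 of 15 irradiated peaks (6.67%), where 15.2% of the whole irradiated list passed; of the 6 control peaks 0 passed, where 6.84% of the control list did. The irradiated list is the longer one: 62.0% of all peaks were irradiated ones, and 71.4% of the 21 peaks in the 5 genes were, a share from which nothing is read because these peaks chose the genes.

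Wnt6, a ligand made by embryonic epithelia, held the strongest peak of the set. The gene (chr1:74754342-74785322) had 3 irradiated and 2 control peaks. The irradiated peak at chr1:74765480-74765874 had a fold of 4.81 on 13 reads at the lowest background of its list, with a q of 0.0119. By p it shared place 938 of the irradiated list with many tied peaks, and 89.7% of that list was weaker. The other irradiated peaks, at chr1:74761364-74761659 and chr1:74757996-74758364, had folds of 3.41 and 2.36, each on 11 reads, with q of 0.149 and 0.915. The control peaks, at chr1:74755331-74755684 and chr1:74764232-74764826, had folds of 3.75 and 3.92 on 10 and 11 reads, both with a q of 0.386. None of the 5 peaks overlapped one of the other list, as was usual (13.3% of all irradiated and 21.4% of all control peaks did), and the closest pair was 654 bp apart. All 5 summits lay before the transcription start of the RefSeq start table, between 6.21 and 16.4 kb upstream. They count for Wnt6 because the RefSeq span begins 17.6 kb before that start. With the span taken from that start, a setting chosen after the data were seen, Wnt6 had 0 peaks in both lists within 2000 bp.

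Wnt2, a canonical ligand of lung and placental development, had 3 irradiated peaks and 1 control peak (chr6:17985474-18032772). The strongest irradiated peak, chr6:18022921-18023274, had a fold of 4.10 on 13 reads with a q of 0.0537. The next, chr6:18007416-18007686 and chr6:18024523-18024843, had folds of 3.84 and 3.51 on 10 and 9 reads, with q of 0.149 and 0.537. The control peak, chr6:18008852-18009210, had a fold of 2.81 on 12 reads and a q of 1. It overlapped none of the irradiated peaks, the nearest of which lay 1166 bp away, and the strongest peaks of the lists were 14.1 kb apart. The control fold was low over a background 2.18 times the lowest of its list, while none of the irradiated peaks reached 1.5 times.

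Wnt3a, a canonical ligand needed for the hippocampus and the embryonic tail, had 3 irradiated peaks and no control peak (chr11:59248036-59290751). They lay at chr11:59275967-59276604, chr11:59254452-59254750 and chr11:59280414-59280913. Their folds were 3.76, 3.41 and 3.17, each on 16 reads, with q of 0.0962, 0.154 and 0.289. By reads these were among the highest summits of the 5 genes, by fold they were middling, because their backgrounds were 2.30, 2.69 and 2.99 times the lowest. The nearest control peak was 139.8 kb from the closest of them. A gene without a control peak may carry the mark below the calling threshold.

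Wnt7a, a ligand of limb and synapse formation and of brain vessels, was the gene of the set with more control than irradiated peaks (chr6:91363981-91411353). Its irradiated peak, chr6:91376729-91377148, had a fold of 3.65 on 11 reads with a q of 0.111. The control peak at chr6:91376653-91376936 had a fold of 4.18 on 13 reads with a q of 0.0596, the lowest of the control peaks in these genes. These overlapped by 208 bp, with summits 54 bp apart. The reads at the shared site were set against the lowest background of its own list, taken as the library average. They were 8.65 times as many in irradiated cells and 8.78 times as many in control cells. Being listed in both libraries required enough reads in each. With 1 library per condition, these values cannot show whether the mark differed there. The second control peak, chr6:91403042-91403400, had a fold of 3.56 on 10 reads and no irradiated peak within 12867 bp.

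Wnt8b, a ligand of the developing forebrain and hippocampus, held the most peaks in the shortest span (chr19:44493472-44514273). It had 5 irradiated peaks, or 20.2 per 100 kb of gene and window, against 1.95 to 8.58 in the other 4 genes. Folds were 3.75 at chr19:44505821-44506121 and 3.70 at chr19:44504851-44505460, on 13 and 11 reads, with q of 0.0710 and 0.0962. The other 3, chr19:44501761-44502240, chr19:44500530-44500915 and chr19:44494204-44494554, had folds of 3.41, 3.14 and 3.06. Their q were 0.537, 0.537 and 0.188, on 9, 10 and 17 reads. Those 17 reads, near the start, were the most of any summit here and stood on the highest background, 3.41 times the lowest. The control peak, chr19:44500104-44500713, had a fold of 2.53 on 10 reads and a q of 1. It overlapped an irradiated peak by 184 bp, but the summits were 412 bp apart.

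**Figure D2:**
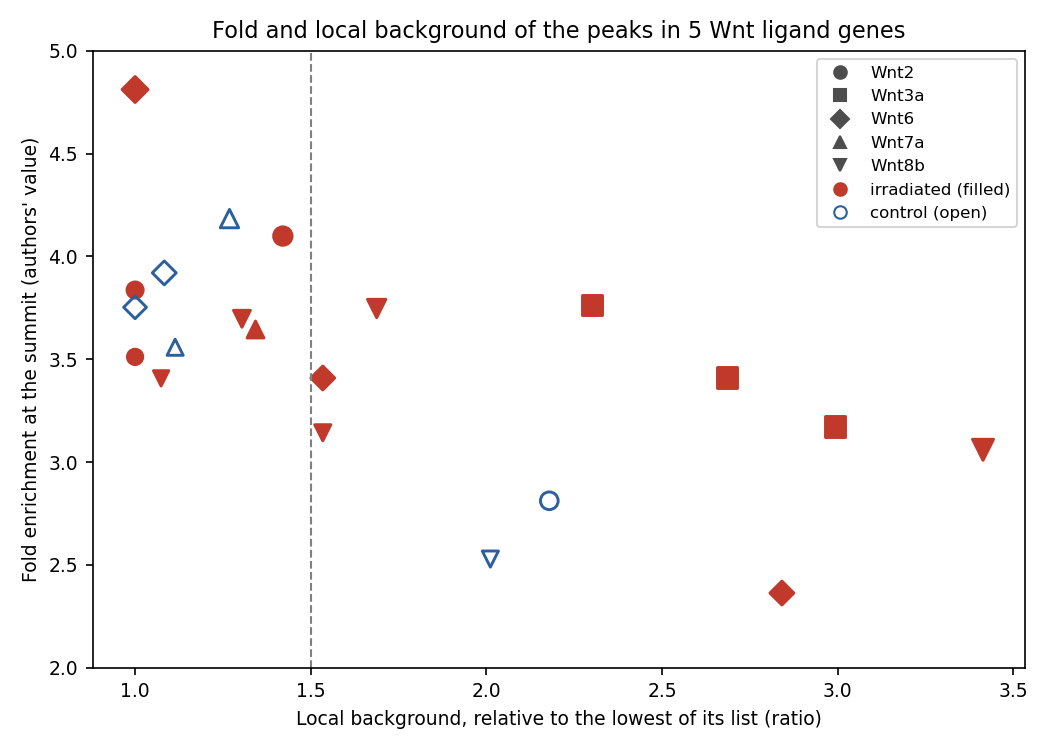
Fold at the summit against local background for the 15 irradiated (filled red) and 6 control (open blue) peaks of the 5 genes. The horizontal axis is the background over the lowest of the same list, the vertical axis the authors' fold, both as ratios, and the area of a symbol grows with the reads; right of the dashed line at 1.5 lie 8 irradiated and 2 control peaks, the 3 of Wnt3a among them.

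Local background was split at 1.5 times the lowest, a cut chosen after seeing the data. Of the irradiated peaks in the 5 genes 8 of 15 (53.3%) stood on a background at least 1.5 times the lowest, where 26.4% of all irradiated peaks did. Of the control peaks it was 2 of 6 (33.3%), where 14.9% of all did. Without such peaks Wnt3a had none left, Wnt8b had 2 irradiated and 0 control peaks, Wnt2 had 3 and 0, Wnt6 had 1 and 2, and Wnt7a had 1 and 2. The irradiated peaks above the cut were 3 in Wnt3a, 3 in Wnt8b and 2 in Wnt6, so neighbours in a gene were counted apart. A peak in Wnt8b and a peak in Wnt6 barely passed, both at 1.53 times the lowest. The part of raised background in the listed peaks was not tested.

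Most peaks of either list had no counterpart in the other, in these genes as elsewhere. In the 5 genes 2 of 15 irradiated peaks (13.3%) overlapped a control peak, and 2 of 6 control peaks (33.3%) an irradiated one. In the whole lists the shares were 13.3% and 21.4%. Under a reciprocal overlap of 50% neither the Wnt7a nor the Wnt8b pair counted as shared.

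Among all 19 Wnt ligand genes 6 had an irradiated peak (31.6%) and 5 a control peak (26.3%), with 4 in both lists, 2 in the irradiated list alone (Wnt3a and Wnt9b) and 1 in the control list alone (Wnt5b). Of all protein-coding genes 8.20% had an irradiated peak, 6.05% a control peak, 3.67% both, 4.53% an irradiated peak alone and 2.38% a control peak alone. The 5 genes are 20.8 to 47.4 kb long, and long genes have more room for peaks; among the 5094 genes of 20 to 50 kb, a class set after the lengths were seen, the shares were 8.26% and 4.85%. These counts were what brought the genes forward, so they are no evidence of enrichment. At least 3 peaks, as in 4 of the 5 genes in the irradiated list, were found in 2.86% of all genes there; in the control list 0 of the 5 genes and 1.44% of all genes had as many. Genes with a peak at a q of at most 0.05 made up 2.08% in the irradiated and 0.516% in the control list; among the ligands that was Wnt6 in the irradiated list.

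Wnt9b and Wnt5b also held a listed peak, and why the set left them out is not known. Wnt9b (chromosome 11), a ligand of kidney and face development, had 1 irradiated peak with a fold of 2.73 on 13 reads, and no control peak. Wnt5b (chromosome 6), a noncanonical ligand, had 1 control peak with a fold of 3.28 on 13 reads, and no irradiated peak. The other 12 had no peak in either list. Their nearest irradiated peak lay between 6.50 kb (Wnt8a) and 565.0 kb (Wnt5a) away, with a median of 48.0 kb, and their nearest control peak between 27.2 kb (Wnt10a) and 828.9 kb (Wnt5a), with a median of 167.3 kb. Chromosome 15, the most peak-rich one of both libraries, carries 3 ligand genes, Wnt1, Wnt7b and Wnt10b, and none of them had a peak.

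**Figure D3:**
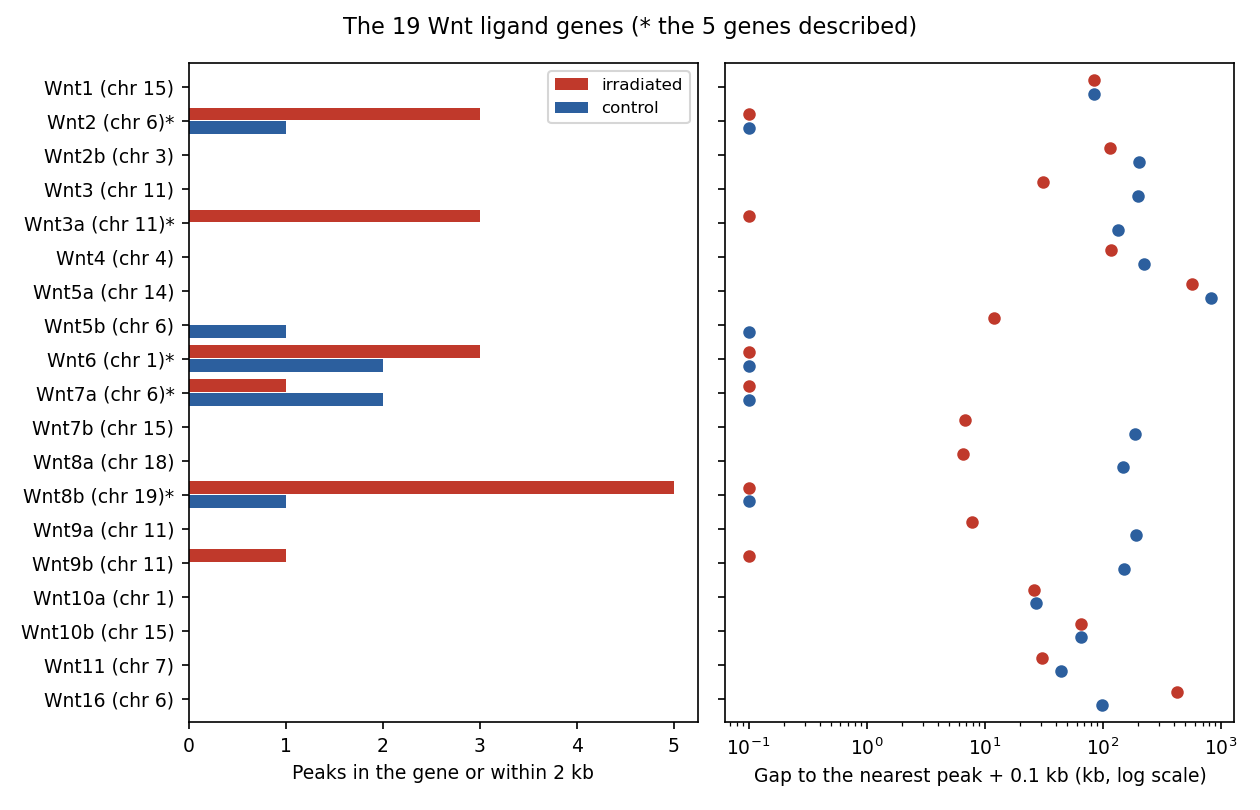
Peaks in each of the 19 Wnt ligand genes (left, number in the gene or within 2 kb) and the gap between the gene and its nearest peak (right, kb on a log scale, with 0.1 kb added so that 0 can be drawn), irradiated in red above control in blue. Stars mark the 5 genes described; Wnt9b and Wnt5b have 1 peak in 1 list, and 12 genes have none.

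The surroundings of the genes differed. Within 500 kb Wnt8b had 43 irradiated and 12 control peaks, Wnt3a 31 and 7, Wnt7a 29 and 15, and Wnt6 14 and 5. All 4 lay above the upper quartile of protein-coding genes in the irradiated list, which was 12 (median 4); in the control list the upper quartile was 5 (median 2). Wnt2 was the exception, with 3 irradiated and 5 control peaks. Its own 3 irradiated peaks were thus all that the irradiated list had within 500 kb, whereas the 5 of Wnt8b were among 43. How far a peak-rich region accounts for the peaks in a gene was not tested.

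**Figure D4:**
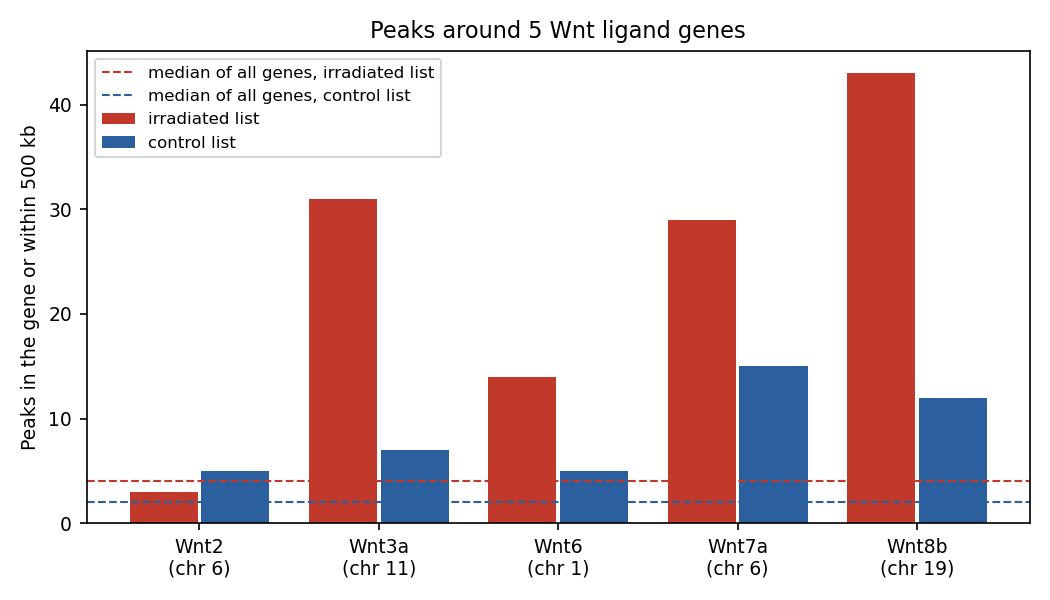
Number of peaks in each gene or within 500 kb of it, irradiated in red left of control in blue, with dashed lines at the medians over 21887 protein-coding genes (4 and 2). Wnt2 has 3 irradiated peaks, the other genes between 14 and 43.

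In the rest of the pathway the share of genes with a peak was near that of all genes in the irradiated list. Of 68 other Wnt pathway genes 7 had an irradiated peak (10.3%) and 2 a control peak (2.94%), beside 8.20% and 6.05% of all genes. Among 16 receptors and co-receptors it was 3 and 1. Ror1 (chromosome 4), a co-receptor for Wnt5a, had 10 irradiated and 7 control peaks in a long gene, with strongest folds of 5.14 (q of 0.0119) and 5.05 (q of 0.0157). Its relative Ror2 (chromosome 13) had 1 irradiated peak, of fold 5.20 and q 0.00459, and Fzd6 (chromosome 15), a Frizzled receptor of planar polarity, 1 of fold 4.19 and q 0.0478. In the irradiated list Wnt2, Wnt3a, Wnt7a and Wnt8b all had a higher lowest q than these 3 receptors. Wnt6, with a q of 0.0119, equalled Ror1 and was lower than Fzd6. A gene with more peaks has more chances of a low q, so no ranking of receptors and ligands is read from this. Of 13 secreted antagonists, Sfrp1 (chromosome 8), which binds Wnt proteins, had 2 irradiated peaks with a strongest fold of 4.10. Of 9 R-spondins and their receptors and ligases, Rnf43 (chromosome 11), which removes Frizzled from the surface, had 5 irradiated peaks (strongest fold 4.49, q of 0.0537), and Rspo4 (chromosome 2) had 1. Of 16 cytoplasmic genes Nkd1 (chromosome 8), a feedback inhibitor, had 1 irradiated peak with a fold of 3.22. Of 12 nuclear factors Pygo1 (chromosome 9), a β-catenin cofactor, had 1 control peak with a fold of 2.98. Both secretion genes, Porcn and Wls, were without a peak.

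Of 9 astrocyte and glioma marker genes, Gfap and Sox2 among them, 0 had a peak in either list. Of all genes 8.20% had an irradiated and 6.05% a control peak, so 0 of so few genes says little. In the irradiated and the control list 1 and 0 of 4 neuron markers, 2 and 0 of 4 microglia and leukocyte markers and 3 and 2 of 3 endothelial markers had one. A listed peak says nothing of expression, so the labelled cell type was not checked by these counts. The genes most like these in their peaks were sought among those with the same number of peaks in each list, by the distance of the strongest log2 folds over the 2 libraries. They were Rgsl1 for Wnt6 (distance 0.059), Fgf23 for Wnt2 (0.053), Marchf1 for Wnt7a (0.055) and Abca4 for Wnt8b (0.157), each the nearest of 16 to 42 candidates.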

How the data were processed

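H3K27me3 was measured by ChIP-seq in 1 irradiated and 1 control library of GL261 cells. Per the labels' protocols, chromatin was fixed with 1% formaldehyde, sonicated to 300 to 500 bp and sequenced in paired 150 bp reads. BWA and deepTools, with no version, and the build mm10 come from the submitters' processing notes, which name no peak caller or settings among the sources used here. The authors deposited 1 narrow peak list per library, not on pooled samples. In the deposited lists, columns of other kinds hold positions in bp. The score deposited for a peak is its −log10 p times 10, cut to a whole number. A deposited fold is a ratio of the summit to a local background. The deposited −log10 p-value is unadjusted and reached a p of 0.00499 in the irradiated and 0.00495 in the control list, so weak peaks are included; the −log10 q-value is adjusted over the genome. These are the authors' own values.

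Lines giving further summits of an interval were merged with it (16770 irradiated and 10081 control lines). Reads and background came from a Poisson model: fold is scaled reads plus 1 over background plus 1, and p is the upper tail. It solved 100% of lines within 0.001 of −log10 p. More than 1 read number met that limit for 1.04% of irradiated and 0.536% of control lines, and the closest was taken. The right values came back for 100% of 2761 and 2950 simulated peaks. These were simulated under the same model, so they check the solving and not the model. One read counted as 0.554 irradiated and 0.620 control scaled reads. Overlap means at least 1 bp. Genes and starts are RefSeq GRCm38.p6; all 5 genes and 15 of 19 ligands had a start region. Python 3.11.15, pandas 2.3.3 and scipy 1.17.1 were used. The genes and lists were chosen with earlier results of these data known. The genes named are the 5 members, other ligands with a peak or next to a member, and up to 4 marked genes per pathway list. Reads without molecular identifiers are not independent molecules, so intervals cover counting error only. Alternatives changed the window, peak strength, list length and overlap.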

Additional observations from a re-analysis of the deposited data

How the results depend on the processing

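The counts depended on how weak a peak was allowed to be. With a q of at most 0.05, 1 irradiated and 0 control peaks were left in the 5 genes, 1 and 0 ligand genes had a peak, 0 had one in both lists, and 0 irradiated peaks were shared. With a −log10 p of at least 5, 1 irradiated peak (Wnt6) and 1 control peak (Wnt7a) were left, so 1 and 1 ligand genes had a peak, with 0 in both lists and 0 shared peaks. Without peaks on a background at least 1.5 times the lowest, a setting chosen after seeing the data, 7 irradiated peaks were left in the 5 genes, 2 ligand genes had a control peak, 2 had one in both lists, and 1 irradiated peak was shared. Shared irradiated peaks numbered 1 with lists of equal length and 0 under a reciprocal overlap of 50%. The other 50 count comparisons stayed within 1.5 times of the reported value, among them windows of 0, 500 and 5000 bp, summits in place of edges, single lines and peaks merged within 1000 bp. Strongest folds stayed within counting error in 27 of 27 comparisons, but these covered little. They were windows of 0 and 5000 bp and the strongest peak picked by fold in place of p. All peaks lay in the gene bodies, so the window of 0 bp could not change a fold. Limits on q, p or background were not applied to the folds. No paired analysis was possible because each condition had 1 library. The library depths are unknown, and 9 to 17 reads per summit limit what any of these peaks can show.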

Other observations

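Several Wnt ligand genes stand next to each other in pairs, and in none of the 4 pairs looked at did both genes hold a peak. Since 8.20% of all protein-coding genes had an irradiated and 6.05% a control peak, and Wnt6 and Wnt3a were chosen for theirs, a neighbour without a peak is the usual case. Wnt6 had 3 irradiated and 2 control peaks, and Wnt10a, 6.70 kb beyond its end, had 0 in both lists. Wnt3a had 3 irradiated peaks and no control peak, and Wnt9a, 16.1 kb away, had 0 in both. Wnt9b had 1 irradiated peak, and Wnt3, whose span overlaps that of Wnt9b by 1098 bp, had 0 in both. Wnt1 and Wnt10b, 11.7 kb apart on chromosome 15, had 0. With few peaks per gene, a gene without one may have missed the calling threshold by 1 or a few reads, and the difference within pairs was not tested.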
